A study of Homo sapiens with 48 samples.

Results

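The neutrophil CXC chemokines CXCL1, CXCL2, CXCL3, CXCL5, CXCL6 and CXCL8 are 6 of the 48898 genes in a table of RNA-seq read counts from 48 human libraries. They were found by gene symbol through their Ensembl identifiers: ENSG00000163739 (CXCL1), ENSG00000081041 (CXCL2), ENSG00000163734 (CXCL3), ENSG00000163735 (CXCL5), ENSG00000124875 (CXCL6) and ENSG00000169429 (CXCL8). The study asked what the mitofusins MFN1 and MFN2, the outer-membrane proteins that fuse mitochondria, and MAVS, the mitochondrial adaptor of RNA sensing, do in senescent cells. Bulk mRNA was sequenced from IMR-90, a line of human lung fibroblasts, and from SK-MEL-103, a human melanoma line. There were 16 groups of 3 libraries, numbered 1 to 3.

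In the siRNA experiments, senescence was induced with 200 nM doxorubicin for 48 h in cells that had received siMFN1, siMFN2, siMFN1+2 (both), siMAVS or the control siRNA cNEG the day before, and the cells were followed for up to 7 days. Proliferating cells with cNEG and without doxorubicin made the sixth group of each line. In the compound experiment, IMR-90 cells taken through 7 days of doxorubicin-induced senescence received 20 µM MFI8, a small-molecule mitofusin inhibitor, 10 µM BI (a code that the labels do not spell out) or the vehicle DMSO for 48 h, and proliferating cells received DMSO. Each cell type is represented by a single line.

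These chemokines are small secreted proteins with an ELR motif before the CXC cysteines, and they draw neutrophils through the receptors CXCR1 and CXCR2. CXCL8 (interleukin-8) and CXCL6 act on both receptors, and CXCL1, CXCL2, CXCL3 and CXCL5 mainly on CXCR2. Their genes are transcribed through NF-kB after interleukin-1 or TNF, with C/EBP and AP-1 factors helping at some of them, and their short-lived mRNAs carry AU-rich elements. They are among the best-known parts of the secretory phenotype of senescent fibroblasts.

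The genes lie in 1 cluster on chromosome 4 (GENCODE 29 positions on GRCh38). On the plus strand are CXCL8 at 73740506 to 73743716, CXCL6 at 73836497 to 73849064 and CXCL1 at 73869393 to 73871242. On the minus strand are CXCL5 at 73995642 to 73998779, CXCL3 at 74036589 to 74038807 and CXCL2 at 74097035 to 74099293. The promoters are shown because all 6 hold the same NF-kB-type element at nearly the same distance from the start. The starts are those of RefSeq and differ from the GENCODE positions for some genes. The stretches shown for CXCL3 and CXCL6 lie inside the GENCODE spans above, and those for CXCL2, CXCL5 and CXCL8 do so in part. Each line gives 100 bases, from position -110 to -11 relative to the RefSeq transcription start (GRCh38.p14), written 5′ to 3′ on the gene's own strand, with GGAATTTCC and the TATA-type ATAAA in capitals.
CXCL1, chr4:73869283-73869382, plus strand: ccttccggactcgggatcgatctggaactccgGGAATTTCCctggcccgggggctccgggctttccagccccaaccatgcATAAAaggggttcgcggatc
CXCL2, chr4:74099206-74099305, minus strand: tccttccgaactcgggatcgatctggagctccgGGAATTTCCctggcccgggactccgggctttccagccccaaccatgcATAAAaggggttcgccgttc
CXCL3, chr4:74038700-74038799, minus strand: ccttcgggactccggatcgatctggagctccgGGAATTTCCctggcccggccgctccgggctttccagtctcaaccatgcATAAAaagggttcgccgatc
CXCL5, chr4:73998688-73998787, minus strand: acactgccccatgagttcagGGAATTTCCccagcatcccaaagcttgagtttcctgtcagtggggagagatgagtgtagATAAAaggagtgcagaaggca
CXCL6, chr4:73836568-73836667, plus strand: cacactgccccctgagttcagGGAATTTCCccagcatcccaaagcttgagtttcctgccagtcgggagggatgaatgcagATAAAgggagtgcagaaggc
CXCL8, chr4:73740459-73740558, plus strand: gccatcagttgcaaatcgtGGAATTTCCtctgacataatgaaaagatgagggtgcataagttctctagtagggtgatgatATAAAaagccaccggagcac

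GGAATTTCC began at position -78 in CXCL1 and CXCL3, -77 in CXCL2, -90 in CXCL5, -89 in CXCL6 and -91 in CXCL8. Searched on both strands over 300 bases (250 before the start to 50 after), it was in 162 of 35116 RefSeq promoters (0.461%) and in 6 of 6 here; preceded by a further G, it was in 51 promoters (0.145%) and in every one here but that of CXCL8. ATAAA between -45 and -15, searched on the gene's strand, was in 1778 promoters (5.06%), and in 6 of 6 here. Both together were in 18 promoters (0.0513%): the 6 shown and those of CXCL10, CXCL11, ICAM1, IFNB1, NFKBIZ, CGA, ACYP2, CACHD1, KANK1, LOC100131496, LOC105370066 and UBL7-DT. An AP-1 motif, TGANTCA, stood only in CXCL8 among the 6, at -137 to -131 (7.71% of all promoters). An exact match to a C/EBP motif, TTGCNNAA, stood only in CXCL2, at -188 to -181 (10.5% of all promoters). CXCL8 holds TTGCAAAT just before its NF-kB-type element, which misses this pattern only in the last letter and was not counted. The promoters fell into families by sequence: CXCL5 and CXCL6 were identical at 83.1% of aligned bases, CXCL1 and CXCL3 at 82.5%, CXCL2 and CXCL3 at 73.8% and CXCL1 and CXCL2 at 71.9%, against 45.2% to 55.4% for every other pair. A motif match is a stretch of letters and not a measured binding site. GGAATTTCC was added to the search after the promoters had been read.

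**Figure D1:**
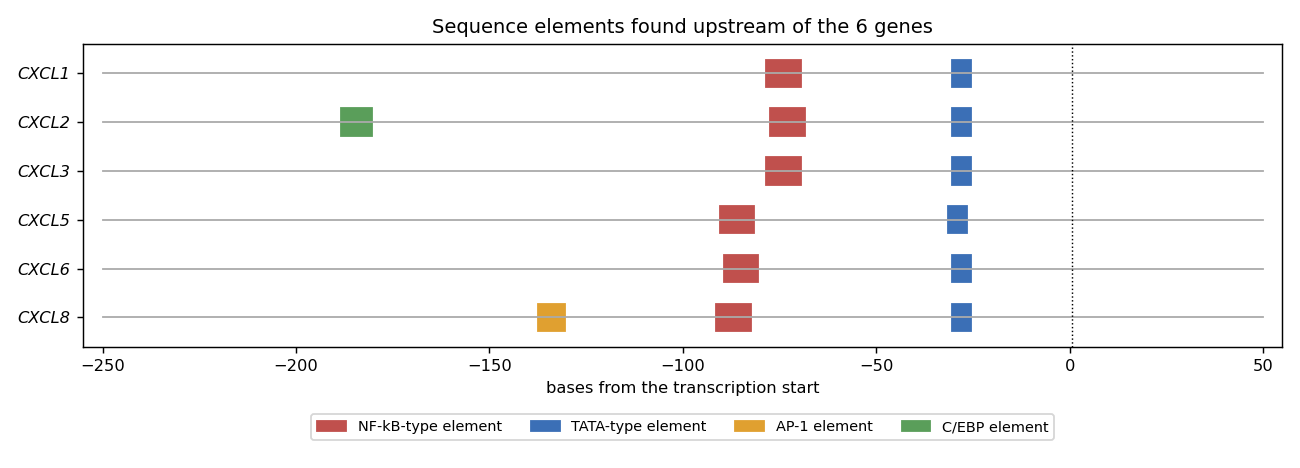
Positions of 4 kinds of motif in the promoters of the 6 chemokine genes, in bases from the RefSeq transcription start, with 1 row per gene. The NF-kB-type element sits between -91 and -69 and the TATA-type element between -31 and -26 in every row, while AP-1 and C/EBP marks appear in 1 row each.

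Libraries held 15206115 to 79204217 counts, and the depth followed the replicate number. Libraries numbered 1 had at least 53390716 counts, those numbered 2 lay between 30176556 and 50828283, and those numbered 3 had at most 31127306. Levels are depth-scaled counts (CPM) after TMM scaling, and differences are log2 fold changes ± SE from edgeR's quasi-likelihood test, called where the p adjusted over all genes tested was below 0.05. Each siRNA target was low in the libraries labelled for it. In IMR-90, MFN1 stood at 7.27 to 7.91 CPM with siMFN1 and 5.75 to 15.1 with siMFN1+2, against 39.1 to 65.1 with cNEG. MFN2 stood at 17.2 to 20.2 CPM with siMFN2 and 17.2 to 21.5 with siMFN1+2, against 156 to 181, and MAVS at 40.7 to 51.3 CPM with siMAVS, against 108 to 150. In SK-MEL-103, siMFN1 left MFN1 at 13 to 19.5 CPM against 49.5 to 55.2 with cNEG, and siMAVS left MAVS at 48.9 to 80 CPM against 160 to 175. The 9 fibroblast markers all averaged at least 1 CPM in IMR-90, and of 9 melanocyte-lineage markers 3 did in SK-MEL-103, led by SOX10, while MLANA and TYR were among the 4 below 1 CPM in every library. None of 9 leukocyte markers averaged 1 CPM in either line, with sums of 0.852 to 4.51 CPM in IMR-90 libraries and 0.708 to 2.11 CPM in SK-MEL-103 libraries. In bulk RNA, fewer cells making a chemokine and less mRNA per cell cannot be told apart.

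Doxorubicin-treated IMR-90 fibroblasts with cNEG held far more chemokine mRNA than proliferating ones. CXCL1, CXCL2, CXCL3, CXCL6 and CXCL8 rose, by 11.7-fold for CXCL3 to 46.9-fold for CXCL1. CXCL5 had a fold change of 3.64 that missed the threshold. All 6 were higher in every senescent library than in every proliferating library.

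CXCL8, the most abundant member, had 231.5, 109.1 and 333.9 CPM in doxorubicin libraries 1, 2 and 3, against 8.95, 8.06 and 3.14 CPM in proliferating libraries (log2 5.07 ± 1.06, adjusted p = 0.0011). CXCL1 had 61.6, 25.3 and 70.0 CPM in doxorubicin libraries, against 1.55, 1.03 and 0.559 CPM in proliferating libraries (5.55 ± 0.91, adjusted p = 0.00015). In both genes the second senescent library was the lowest of its group and still several times above the highest proliferating one. CXCL6, granulocyte chemotactic protein of stromal and epithelial cells, had 14.4, 4.26 and 3.25 CPM in doxorubicin libraries, against 0.132, 0.0912 and 0.430 CPM in proliferating libraries (5.38 ± 0.94, adjusted p = 0.00026). CXCL2 had 6.10, 5.07 and 18.4 CPM in doxorubicin libraries, against 1.08, 0.395 and 0.301 CPM in proliferating libraries (3.83 ± 0.82, adjusted p = 0.0014). CXCL2 was thus highest in the third senescent library, whereas CXCL6 was highest in the first. CXCL3 had 4.68, 4.81 and 8.93 CPM in doxorubicin libraries, against 0.689, 0.335 and 0.430 CPM in proliferating libraries (3.55 ± 0.81, adjusted p = 0.0021). CXCL5 had 7.47, 4.42 and 5.65 CPM in doxorubicin libraries, against 2.76, 0.365 and 1.46 CPM in proliferating libraries (1.87 ± 0.76, adjusted p = 0.053). The narrowest gap between the groups was that of CXCL5, whose proliferating libraries spread widely.

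Called higher were 5 of 6 members, against 27.4% of all genes tested, and the median log2 fold change was 4.45 over the members and 0.09 over all genes tested. The groups did not overlap for 6 of 6 members, against 29.3% of genes. Leaving out each library in turn left 5 or 6 members called. Within library codes 19 to 35 (numbers in the sample descriptions) the members' differences spanned 2.43 to 5.66, and within codes 89 to 93 they spanned 1.92 to 6.85.

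**Figure D2:**
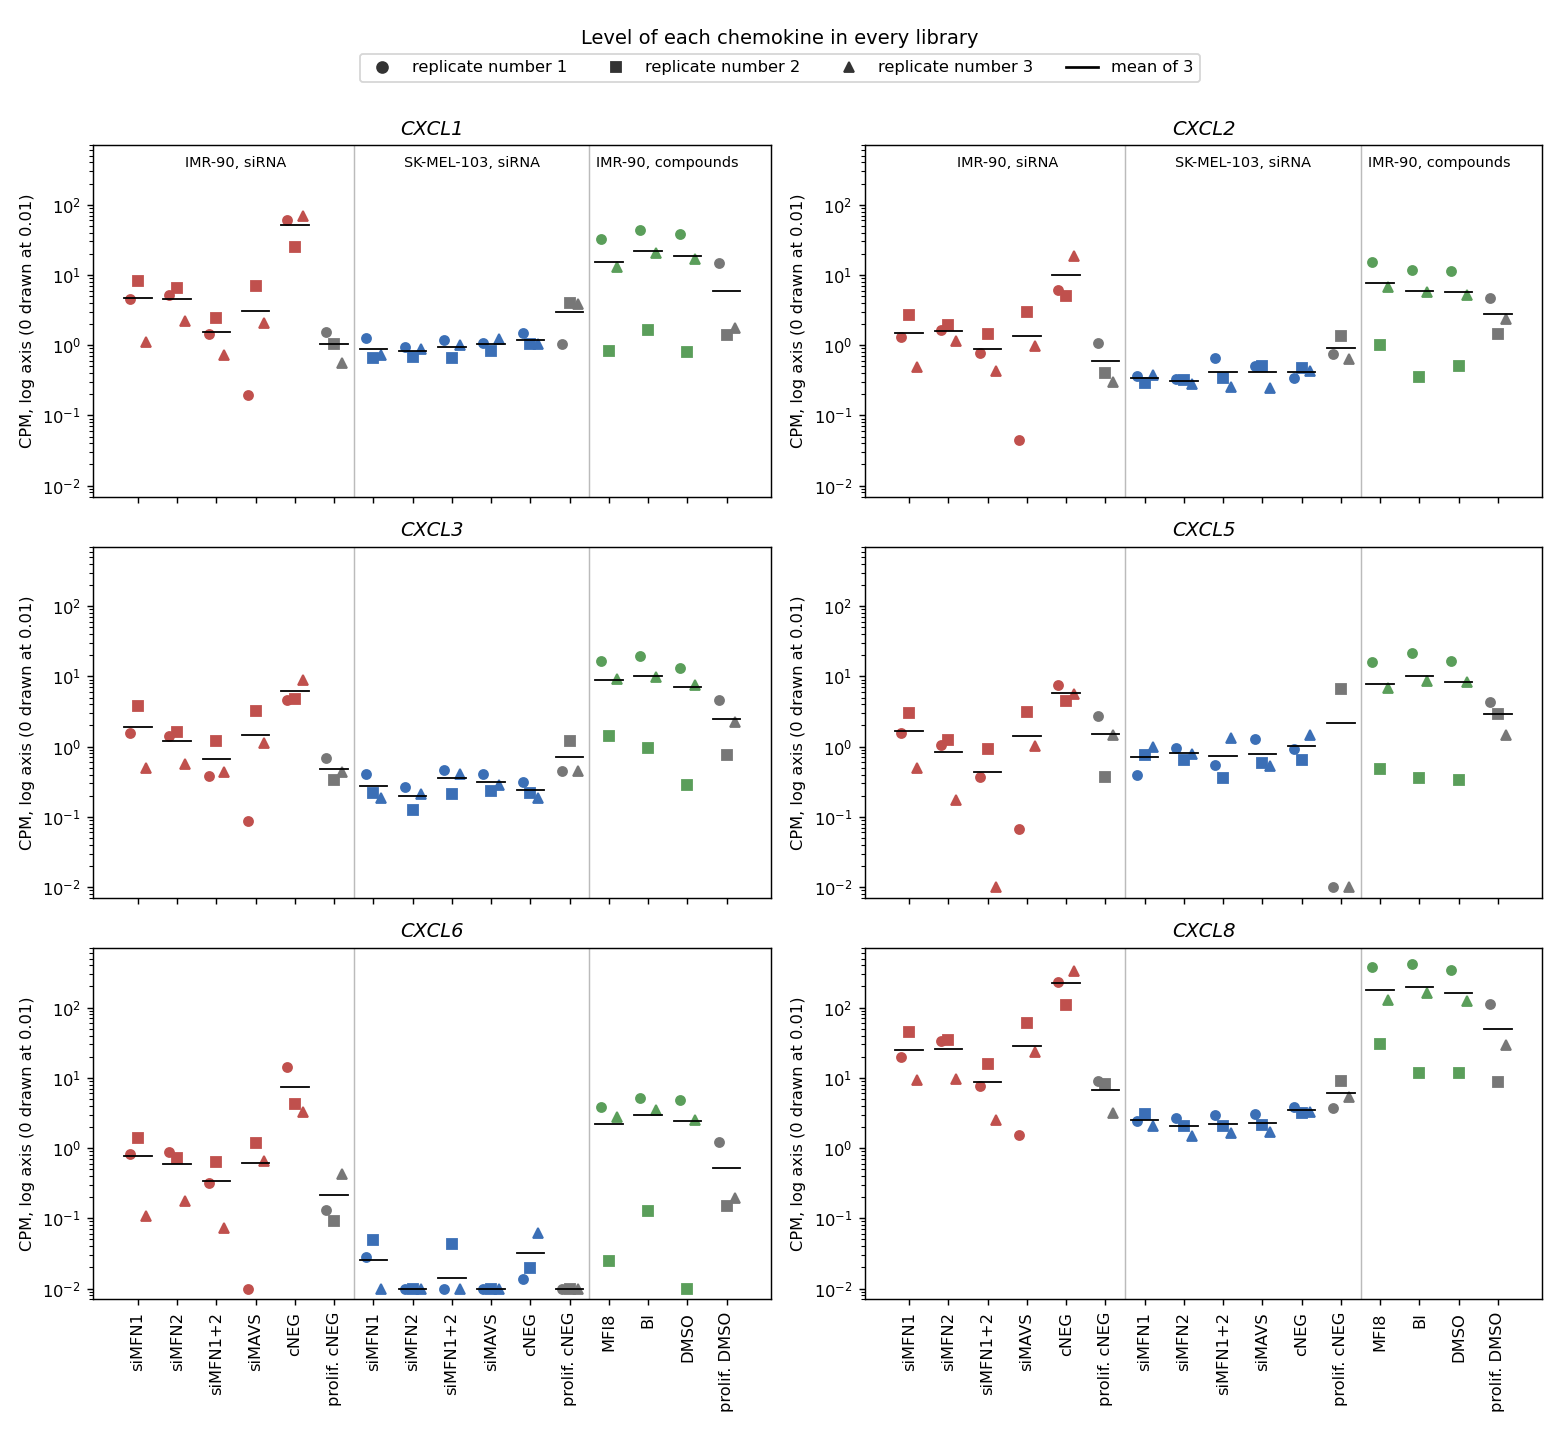
CPM of each chemokine in every library (log axis, 1 panel per gene), with groups along the horizontal axis, points for single libraries and bars for group means. IMR-90 doxorubicin cNEG libraries lie above every silenced IMR-90 library in all 6 panels, all SK-MEL-103 libraries lie below them for CXCL1, CXCL2, CXCL3, CXCL6 and CXCL8, and in each of the 3 doxorubicin groups of the compound experiment 1 library lies well below the other 2.

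Per kilobase of transcript, the 6 genes were made in very unequal amounts. CXCL8 supplied 65.4% ± 2.45 (SD, n = 3) of the length-scaled total in doxorubicin cNEG fibroblasts and CXCL1 supplied 23.9% ± 2.21, with 132 ± 66.0 and 47.7 ± 21.6 CPM per kb. The other members were at 8.09 ± 6.09 (CXCL2), 5.71 ± 2.25 (CXCL3), 4.25 ± 3.59 (CXCL6) and 2.30 ± 0.605 (CXCL5) CPM per kb. CXCL8 was the leading member in each group, with a mean share of 59.0% to 77.7% in the IMR-90 groups and 41.1% to 49.4% in the SK-MEL-103 groups. CXCL1, CXCL2 and CXCL3 are near-copies of each other: 5.73%, 9.24% and 5.26% of their 50-base words occur in another of the 3, so a small part of their reads could be assigned to the wrong one or left uncounted.

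Across all 16 groups, mean levels of CXCL1 (52.3 CPM), CXCL2 (9.85), CXCL6 (7.30) and CXCL8 (225) were highest in IMR-90 doxorubicin cNEG. CXCL3 (10.2) and CXCL5 (10.1) were highest in senescent IMR-90 with BI, a group with SDs of 9.36 and 10.6 CPM. The lowest means were those of SK-MEL-103 siMFN2 for CXCL1 (0.838), CXCL2 (0.310), CXCL3 (0.201) and CXCL8 (2.08), IMR-90 siMFN1+2 for CXCL5 (0.428) and 3 SK-MEL-103 groups at 0 counts for CXCL6. Adjacent groups in this order mostly did not separate. Their libraries overlapped for 15 of 15 neighbouring pairs in CXCL1 and CXCL2 and for 14 of 15 in each of the other genes. The 1 gap lay below IMR-90 doxorubicin cNEG for CXCL3 and CXCL5, below IMR-90 proliferating cNEG for CXCL6 and below SK-MEL-103 doxorubicin cNEG for CXCL8.

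Silencing either mitofusin, both or MAVS in doxorubicin-treated IMR-90 cells went with lower chemokine mRNA. In each of the 4 comparisons all 6 members were lower in every silenced library than in every cNEG library. CXCL1 and CXCL6 fell with siMFN1, siMFN1+2 and siMAVS, and CXCL8 fell with siMFN1+2. No member passed the threshold with siMFN2, whose estimates ran from -3.48 to -2.25 on the log2 scale. The 4 comparisons share the same 3 cNEG libraries, so they are not independent of each other.

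With siMFN1+2, CXCL8 had 7.63, 15.8 and 2.52 CPM, against 231.5, 109.1 and 333.9 CPM with cNEG (log2 -4.65 ± 1.03, adjusted p = 0.040). CXCL1 had 1.44, 2.41 and 0.719 CPM with siMFN1+2, against 61.6, 25.3 and 70.0 CPM with cNEG (-4.98 ± 0.88, adjusted p = 0.013). Both genes overlapped the range of proliferating libraries when both mitofusins were silenced, with CXCL1 at 0.559 to 1.55 CPM and CXCL8 at 3.14 to 8.95 CPM in proliferating cells. CXCL6 had 0.313, 0.635 and 0.0719 CPM with siMFN1+2, against 14.4, 4.26 and 3.25 CPM with cNEG (-4.21 ± 0.84, adjusted p = 0.023). CXCL2, CXCL3 and CXCL5 had differences of -3.32, -3.08 and -3.48 with adjusted p of 0.052, 0.065 and 0.068. CXCL5 in the third siMFN1+2 library was at 0 counts, against 5.65 CPM in the third cNEG library. Called were 3 of 6 members, against 0.933% of all genes called lower. For non-overlap the figures were 6 of 6 members against 10.2% of genes.

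With siMFN1, CXCL1 had 4.53, 8.29 and 1.09 CPM (-3.45 ± 0.79 against cNEG, adjusted p = 0.044) and CXCL6 had 0.826, 1.41 and 0.109 CPM (-3.13 ± 0.75, adjusted p = 0.049). CXCL8 had 19.8, 45.4 and 9.18 CPM with siMFN1, against the cNEG values above (-3.18 ± 0.96, adjusted p = 0.12). In each of the 6 genes the second siMFN1 library was the highest and the third the lowest. The remaining members had differences of -2.62 (CXCL2), -1.60 (CXCL3) and -1.74 (CXCL5), with adjusted p of 0.099, 0.27 and 0.29. Thus 2 of 6 members were called, against 0.991% of genes called lower, and 6 of 6 did not overlap, against 9.21%.

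With siMFN2, CXCL8 had 33.3, 34.7 and 9.56 CPM (-3.12, adjusted p = 0.17), CXCL1 had 5.2, 6.44 and 2.18 CPM (-3.47, adjusted p = 0.080) and CXCL6 had 0.890, 0.710 and 0.175 CPM (-3.48, adjusted p = 0.069). The third library was again the lowest in these genes. CXCL2, CXCL3 and CXCL5 had differences of -2.58, -2.25 and -2.68. None of 6 members was called, against 0.168% of genes called lower, with 2569 genes at an unadjusted p below 0.05; 6 of 6 did not overlap, against 8.79%.

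With siMAVS, the highest and the lowest of the 3 libraries were further apart on the log scale for CXCL1 and CXCL8 than in the other silenced groups. CXCL8 had 1.52, 60.5 and 23.2 CPM (-3.0, adjusted p = 0.15), CXCL1 had 0.198, 7.05 and 2.06 CPM (-4.10 ± 0.82, adjusted p = 0.039) and CXCL6 had 0 counts in the first library and 1.19 and 0.665 CPM in the others (-3.68 ± 0.78, adjusted p = 0.048). The first siMAVS library was below every proliferating library for CXCL1, CXCL2, CXCL3, CXCL5, CXCL6 and CXCL8, and the second was the highest of its group for each. CXCL2, CXCL3 and CXCL5 had differences of -2.89, -2.07 and -2.10, with adjusted p of 0.090, 0.18 and 0.21. Called were 2 of 6 members, against 0.414% of genes called lower, and 6 of 6 did not overlap, against 8.08%.

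The 3 remaining members were lower in the silenced cells by narrower gaps. CXCL2, a CXCR2 ligand like CXCL1, lay between 0.0441 and 3.01 CPM in the 12 silenced libraries, against 5.07 to 18.4 CPM with cNEG. CXCL3 lay between 0.0881 and 3.75 CPM in the silenced libraries, against 4.68 to 8.93 CPM with cNEG. CXCL5 lay between 0 and 3.15 CPM in the silenced libraries, against 4.42 to 7.47 CPM with cNEG. For CXCL5, the third library was the lowest with siMFN1 (0.492 CPM), siMFN2 (0.175 CPM) and siMFN1+2, while with siMAVS it was the first (0.0661 CPM). The CXCL5 values of proliferating cells, 0.365 to 2.76 CPM, overlapped those of each silenced group.

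How firmly these differences are called turns on the library numbers. Same-numbered libraries of cNEG and of siMFN1, siMFN2 or siMFN1+2 deviated together, so fits with the number as a block apply to these 3. In the libraries of each comparison alone with the block, 6 of 6 members were called with siMFN1 (adjusted p from 0.001 to 0.028, with 17.9% of genes called in either direction), 6 of 6 with siMFN2 (0.00025 to 0.0055, with 14.8%) and 6 of 6 with siMFN1+2 (0.00019 to 0.0015, with 18% of genes). With the block over all groups of the line, 3, 2 and 6 members were called, against 3.8%, 1.18% and 3.62% of genes. Number 3 carried library codes 89 to 93, except in siMAVS, and within those codes the differences were the larger ones: -5.94 to -3.41 for siMFN1, -5.12 to -3.87 for siMFN2 and -7.03 to -4.23 for siMFN1+2. Within codes 19 to 35 they were -2.81 to -0.96 for siMFN1, -3.23 to -1.61 for siMFN2, -4.37 to -2.34 for siMFN1+2 and -4.68 to -2.58 for siMAVS, which had no library in codes 89 to 93.

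Without the block, single libraries decided the calls. For siMFN1, CXCL1 stayed called only without cNEG library 2 and CXCL6 only without cNEG library 2 or 3, with adjusted p of up to 0.18 for CXCL1 and 0.29 for CXCL6. For siMFN1+2, CXCL1 lost its call without cNEG library 1, siMFN1+2 library 1 or siMFN1+2 library 3 (up to 0.097), CXCL6 stayed called only without cNEG library 2 or 3 (up to 0.15) and CXCL8 only without cNEG library 2 (up to 0.17). For siMAVS, CXCL1 lost its call without cNEG library 1 or 3 or siMAVS library 3 (up to 0.18), and CXCL6 stayed called only without cNEG library 2 or 3 (up to 0.23). The direction held in every one of these refits, with CXCL1 between -4.06 and -3.05 for siMFN1, -5.43 and -4.70 for siMFN1+2 and -5.66 and -3.51 for siMAVS.

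The proliferation marker MKI67 was higher with each mitofusin siRNA than in the cNEG library of the same number. With siMAVS this did not hold for the first library, and the range of every silenced group overlapped that of cNEG. No test of MKI67 is given here. MKI67 had 34.8, 38.6 and 110 CPM with siMFN1, 35.4, 26.7 and 73.2 with siMFN2, 28.6, 27.6 and 68.8 with siMFN1+2 and 10.2, 30.0 and 38.1 with siMAVS, against 11.1, 20.3 and 37.0 with cNEG. All were far below the 491 to 531 CPM of proliferating cells. The part of such differences in the chemokine levels was not tested.

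**Figure D3:**
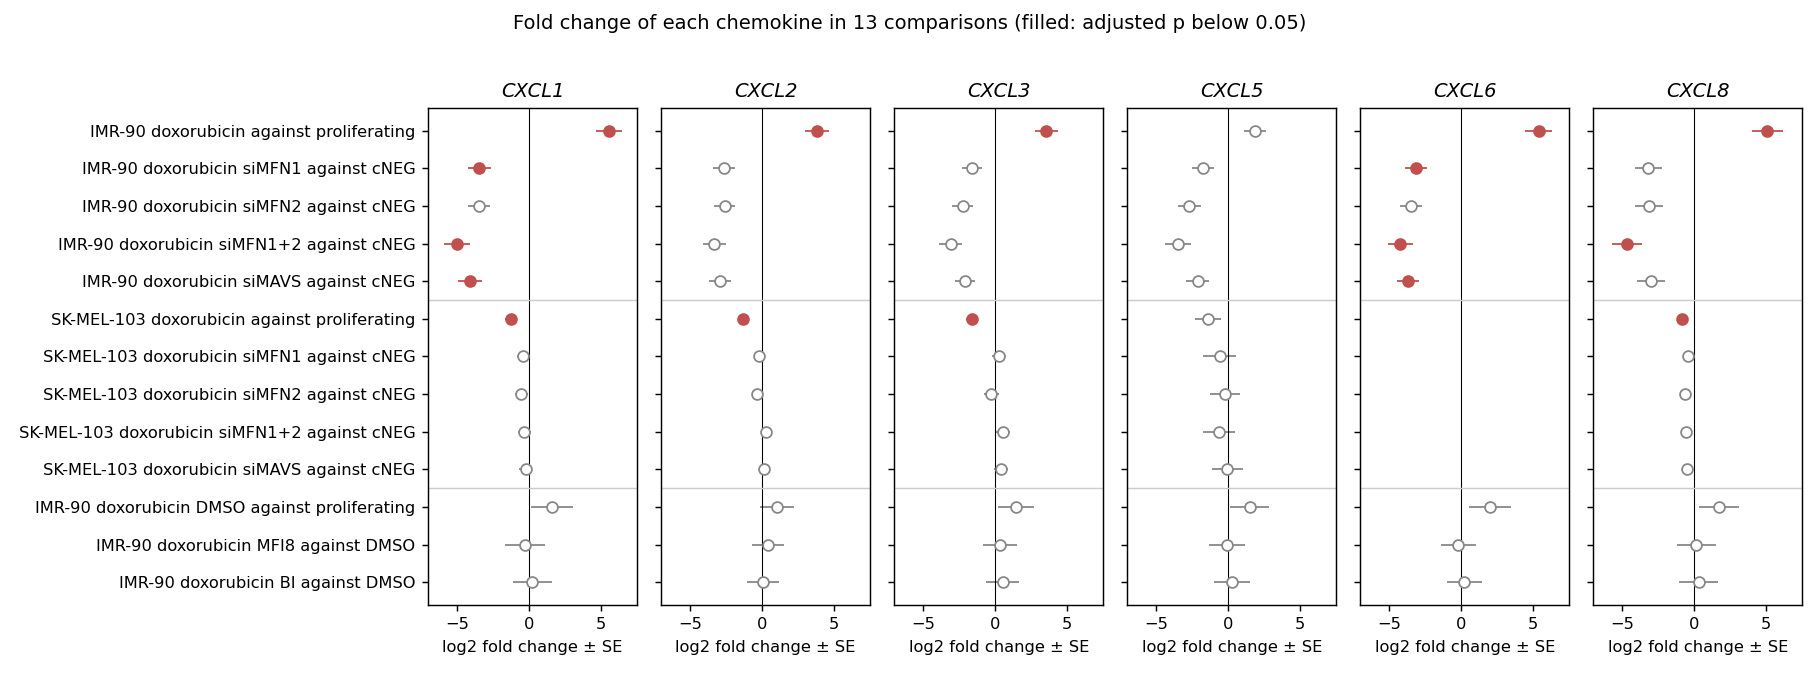
Log2 fold changes of the 6 chemokines (points) with their SE (bars) in the 13 comparisons within experiments. Filled points have an adjusted p below 0.05; 5 of 6 are filled for doxorubicin in IMR-90, 3 of 6 for siMFN1+2, and none for the SK-MEL-103 siRNAs or for MFI8 and BI.

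**Figure D4:**
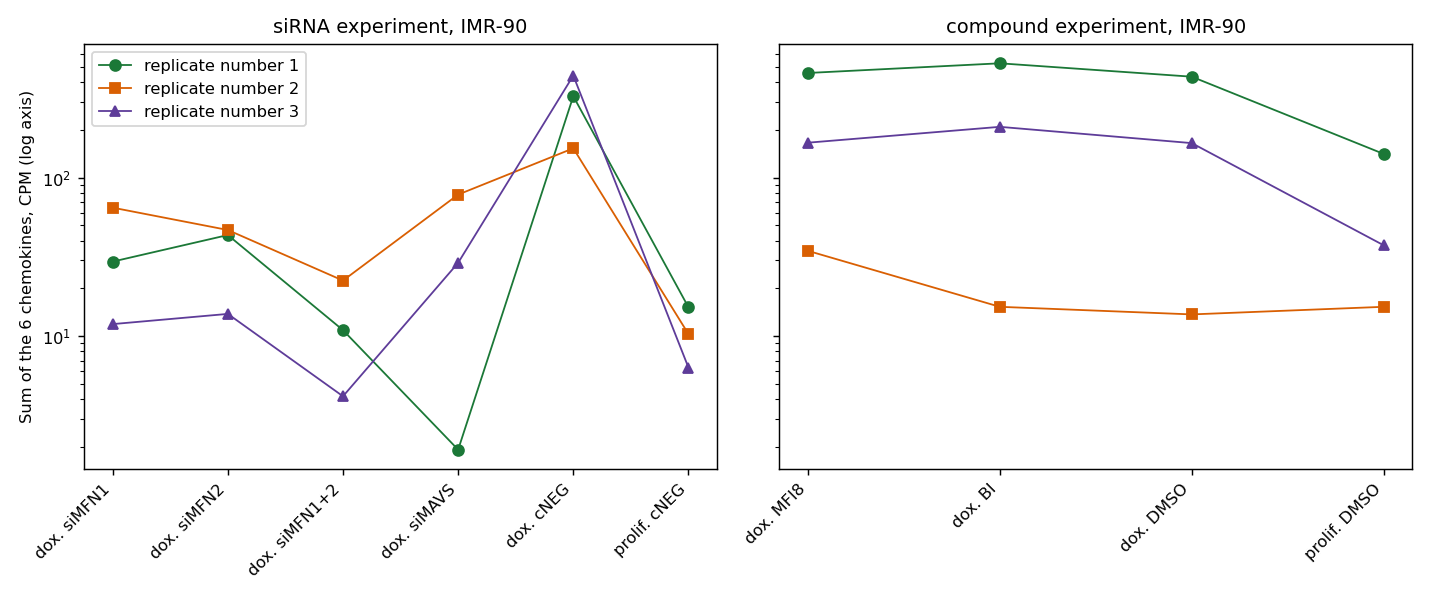
Summed CPM of the 6 chemokines in each library, by replicate number, for the IMR-90 siRNA experiment and the compound experiment (log axis). In the IMR-90 siRNA experiment the cNEG sums of 326, 153 and 440 CPM stand above every silenced sum, and in the compound experiment number 2 is low in all 4 groups, at 13.7 to 34.5 CPM.

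SK-MEL-103 melanoma cells made little of these chemokines. CXCL1, CXCL2, CXCL3 and CXCL8 fell, by 0.88 to 1.59 on the log2 scale, where in IMR-90 they rose. CXCL6 had at most 2 counts in any library of this line. No member was called with any of the siRNAs when the library numbers were not modelled, although CXCL8 was lower in every silenced library than in every cNEG library.

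CXCL8 had 3.87, 3.19 and 3.28 CPM in doxorubicin cNEG libraries, against 3.71, 8.99 and 5.35 CPM in proliferating libraries (log2 -0.88 ± 0.28, adjusted p = 0.011). CXCL1 had 1.5, 1.05 and 1.05 CPM in doxorubicin libraries, against 1.05, 3.97 and 3.81 CPM in proliferating libraries (-1.24 ± 0.39, adjusted p = 0.010). In both genes the first proliferating library lay within or at the edge of the doxorubicin range. CXCL2 had 0.341, 0.475 and 0.433 CPM in doxorubicin libraries, against 0.743, 1.33 and 0.635 CPM in proliferating libraries (-1.29 ± 0.31, adjusted p = 0.0018). CXCL3 had 0.314, 0.218 and 0.186 CPM in doxorubicin libraries, against 0.452, 1.20 and 0.454 CPM in proliferating libraries (-1.59 ± 0.42, adjusted p = 0.0036). For CXCL2 and CXCL3 the groups did not overlap, against 23.2% of genes lower without overlap. Called lower were 4 of 5 members tested, against 30.6% of genes. CXCL6 was too low to be tested, with 1, 1 and 2 counts in doxorubicin cNEG libraries and 0 in each proliferating library.

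CXCL5 showed an uneven pattern. It had 67, 33 and 47 counts in the doxorubicin cNEG libraries, against 0, 308 and 0 counts in proliferating libraries 1, 2 and 3 (-1.39 ± 0.91, adjusted p = 0.19). The second proliferating library thus carried all of the group's CXCL5 and was the highest for CXCL1, CXCL2, CXCL3 and CXCL8 too. Without it, CXCL1, CXCL3 and CXCL8 had adjusted p of 0.12, 0.061 and 0.15, and the sign of CXCL5 turned: the estimate was 8.48 ± 1.65 (adjusted p = 0.00045) against 2 libraries at 0 counts, a size that rests on the fit's handling of zeros.

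With siMFN1, siMFN2, siMFN1+2 and siMAVS, CXCL8 in SK-MEL-103 had 2.41, 3.06 and 2.06 CPM, 2.66, 2.09 and 1.49 CPM, 2.94, 2.07 and 1.66 CPM, and 3.06, 2.12 and 1.69 CPM, against 3.87, 3.19 and 3.28 CPM with cNEG. The silenced and cNEG libraries did not overlap, as for 8.47%, 7.37%, 7.97% and 6.89% of genes that were lower in the 4 comparisons. The differences were -0.44, -0.67, -0.54 and -0.50, with adjusted p of 0.91, 1, 1 and 1, and 0 of 5 members tested were called in each (with 0.128%, 0.0669%, 0.24% and 0.1% of genes called in either direction). The other tested members spanned 0.662 to 1.26 CPM (CXCL1), 0.246 to 0.648 (CXCL2), 0.126 to 0.463 (CXCL3) and 0.363 to 1.31 (CXCL5) over the 12 silenced libraries, against 1.05 to 1.5, 0.341 to 0.475, 0.186 to 0.314 and 0.653 to 1.45 CPM with cNEG. With siMFN2 alone, CXCL1 (0.674 to 0.954 CPM) and CXCL2 (0.283 to 0.331 CPM) also lay below every cNEG library. The library numbers pair these samples. In each mitofusin comparison's own libraries with the block, CXCL8 alone was called: -0.46 ± 0.15 for siMFN1 (adjusted p = 0.040, with 19% of genes called), -0.66 ± 0.13 for siMFN2 (adjusted p = 0.0053, with 6.79%) and -0.55 ± 0.13 for siMFN1+2 (adjusted p = 0.016, with 8.49%). For siMAVS the same fit called no member, with 0.0604% of genes called. With the block over all groups of the line, no member was called with any of the 4 siRNAs, with 0.418%, 0.1%, 0.334% and 0.145% of genes called for siMFN1, siMFN2, siMFN1+2 and siMAVS.

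The effect of doxorubicin on the chemokines differed between the lines. The difference of effects, SK-MEL-103 minus IMR-90, was -6.73 ± 0.98 for CXCL1 (adjusted p = 1.8e-05), -5.86 ± 1.07 for CXCL8 (0.00023), -4.99 ± 0.99 for CXCL2 (0.00056) and -5.04 ± 1.04 for CXCL3 (0.00088). These 4 were lower in the difference, against 9.16% of genes, and stayed called when any 1 of the 12 libraries was left out. CXCL5 had -3.12 ± 1.26 (adjusted p = 0.077). With single libraries left out, its estimate ran from -4.08 to 6.60, so its sign was not stable. CXCL6 was too low in SK-MEL-103 for an estimate. For the siRNAs the difference between the lines was called for 0 of the 5 members other than CXCL6 in all 4 cases (with 0.153%, 0.0431%, 0.144% and 0.0431% of genes called in either direction for siMFN1, siMFN2, siMFN1+2 and siMAVS). The nearest was CXCL1 with siMFN1+2, at 4.64 ± 1.03 (adjusted p = 0.062); with a block over all groups CXCL1 (adjusted p = 0.023) and CXCL8 (0.042) were called, against 0.689% of genes.

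In the compound experiment, no chemokine was called between doxorubicin-treated and proliferating IMR-90 cells in DMSO when the library numbers were not modelled. All 6 members overlapped between the groups. The spread followed the replicate numbers: in the doxorubicin groups, number 1 was high, number 3 intermediate and number 2 low. No member was called with MFI8 or BI when the numbers were not modelled.

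CXCL8 had 348.6, 11.8 and 124.4 CPM in doxorubicin DMSO libraries 1, 2 and 3, against 111.7, 8.60 and 29.5 CPM in proliferating DMSO libraries (log2 1.71 ± 1.40, adjusted p = 0.31). CXCL1 had 38.1, 0.813 and 16.9 CPM in doxorubicin DMSO libraries, against 14.9, 1.38 and 1.74 CPM in proliferating libraries (1.58 ± 1.45, adjusted p = 0.37). The second doxorubicin library held less CXCL1 than any proliferating library. The largest estimate was that of CXCL6, at 4.78 CPM, 0 counts and 2.54 CPM in doxorubicin libraries, against 1.21, 0.150 and 0.193 CPM in proliferating libraries (2.02 ± 1.46, adjusted p = 0.26). The second doxorubicin library was at 0 for CXCL6, where every proliferating library had counts. CXCL2 had 11.4, 0.502 and 5.14 CPM in doxorubicin DMSO libraries, against 4.65, 1.44 and 2.36 CPM in proliferating libraries. CXCL3 had 13.3, 0.287 and 7.61 CPM in doxorubicin DMSO libraries, against 4.58, 0.749 and 2.22 CPM in proliferating libraries. CXCL5 had 16.4, 0.335 and 8.45 CPM in doxorubicin DMSO libraries, against 4.33, 2.94 and 1.45 CPM in proliferating libraries. In each of these 3 genes, doxorubicin libraries 1 and 3 were thus above every proliferating library and library 2 was below every one. None of 6 members was called, while 28.8% of genes were called higher. The second doxorubicin DMSO library had CDKN1A, a cell cycle inhibitor induced by DNA damage, at 2120 CPM, against 1850 and 1940 CPM in numbers 1 and 3. Its MKI67 was 86.3 CPM, against 29.3 and 46.6 CPM in those numbers and 448 to 628 CPM in proliferating cells. Interleukin-6, another secreted factor, was also low there, at 14.7 CPM against 197 and 82.2 CPM. Without number 2 in all 4 groups, CXCL3 (1.60, adjusted p = 0.014), CXCL5 (2.03, adjusted p = 0.017) and CXCL6 (2.20, adjusted p = 0.0040) were called, that is 3 of 6 members, with 65% of genes called in either direction.

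MFI8 and BI were given at different doses and share the DMSO libraries, so their values stand side by side. CXCL8 had 372.7, 30.7 and 127.2 CPM with 20 µM MFI8 and 423.6, 11.9 and 160.3 CPM with 10 µM BI, against 348.6, 11.8 and 124.4 CPM with DMSO. CXCL3 had 16.5, 1.43 and 9.06 CPM with MFI8 and 19.7, 0.941 and 9.87 CPM with BI, against 13.3, 0.287 and 7.61 CPM with DMSO. Number 2 was the lowest under every treatment. CXCL1 had 32.6, 0.826 and 12.8 CPM with MFI8 and 43.9, 1.63 and 20.9 CPM with BI, against 38.1, 0.813 and 16.9 CPM with DMSO. The spread between numbers was thus larger than the distance between treatments of the same number. Over the 6 members the differences from DMSO were -0.27 to 0.42 with MFI8 and 0.06 to 0.52 with BI, each with an adjusted p of 1. Without the block, edgeR called no gene with either compound (0% of genes), with 371 genes at an unadjusted p below 0.05 for MFI8 and 175 for BI, and DESeq2 called 1 gene for MFI8 and 0 for BI. The numbers pair these libraries. In each comparison's own libraries with the block, BI had CXCL1 higher by 0.29 ± 0.08 (adjusted p = 0.037), CXCL3 by 0.57 ± 0.11 (0.00063) and CXCL8 by 0.25 ± 0.06 (0.0061), with 3.84% of genes called in either direction, and MFI8 had 0 members called, with 2.74%. With the block over all groups of the experiment, these calls were lost: 0 members and 0% of genes were called for BI and for MFI8. MKI67 was at 20.9, 71.5 and 34.1 CPM with MFI8 and 13.8, 56.4 and 30.6 CPM with BI, against 29.3, 86.3 and 46.6 CPM with DMSO; its part in the chemokine values was not tested.

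The 6 genes varied together from library to library. Over the 18 IMR-90 siRNA libraries the median Pearson correlation of log2 CPM among the 15 pairs was 0.91 (0.78 to 0.98), and over the 12 compound libraries it was 0.95 (0.88 to 0.98). In SK-MEL-103, with CXCL6 left out, the 10 pairs had a median of 0.67 (-0.05 to 0.83). These libraries share treatments and depth, so the values only describe them. Over the means of the 16 groups, the genes most like CXCL8 among 21469 were CSF3 (r = 0.976), BCL2A1 (0.967) and CSF2 (0.964). CSF3 encodes the neutrophil growth factor G-CSF, CSF2 encodes GM-CSF and BCL2A1 a survival protein. CSF3 was also nearest to CXCL3 (0.962) and second for CXCL2 (0.934, after JSRP1 at 0.949). The nearest to CXCL1 was SLC11A2 (0.924), to CXCL5 WARS1 (0.882) and to CXCL6 MIR3142HG (0.975), with the chemokine CXCL10 at 0.966. Over the 10 IMR-90 groups alone, IL1B was nearest to CXCL8 (0.990) and to CXCL3 (0.969). For the other members it was not: C6orf58 was nearest to CXCL1 (0.951) and CXCL2 (0.966), CYTH1 to CXCL5 (0.945) and CD44-AS1 to CXCL6 (0.974).

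Of 10 other genes of the cluster and its flank, 6 could be tested in IMR-90. Called higher with doxorubicin were 3 of these, against 27.4% of all genes tested. The 3 included the EGF-family ligands EPGN (4.09, adjusted p = 0.0055) and AREG (1.69, adjusted p = 0.049). None of the 6 was called with any of the 4 siRNAs. Of all 19077 genes tested, only 302 were called with siMFN1, 53 with siMFN2, 300 with siMFN1+2 and 121 with siMAVS. In SK-MEL-103, 2 of 4 were called higher and 2 lower with doxorubicin, against 29.8% of genes higher and 30.6% lower.

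**Figure D5:**
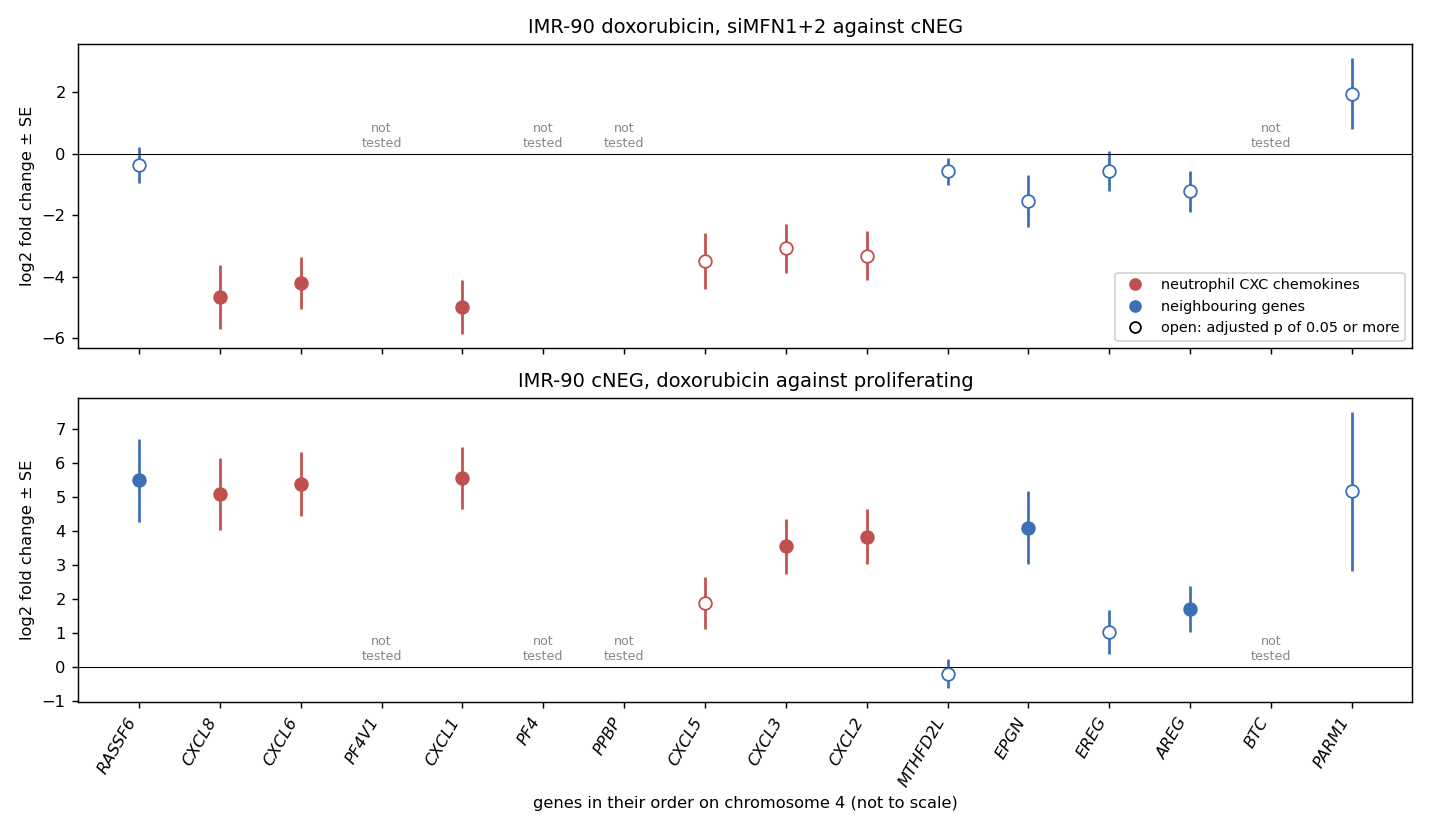
Log2 fold changes of the 16 genes of the cluster and its flank in their order along chromosome 4, for siMFN1+2 against cNEG (upper panel) and for doxorubicin against proliferating (lower panel) in IMR-90. The 6 chemokines are the low points of the upper panel, at -4.98 to -3.08 where the lowest other gene is EPGN at -1.55, and all lie above 0 in the lower panel, at 1.87 to 5.55; genes too low to test have no point.

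The receptors were near the limit of detection. CXCR2 was the only 1 of CXCR1, CXCR2 and ACKR1 with enough counts to test. In IMR-90 it had 57 counts over the 3 doxorubicin cNEG libraries, against 0 in the proliferating ones, which makes it at least 18.1-fold higher when 3 counts over the group are taken as the floor (adjusted p = 0.0014). In the compound experiment it had 66 counts in doxorubicin DMSO against 0 in proliferating DMSO, at least 20.1-fold higher. It was not called with any siRNA.

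Over all genes tested, 27.4% rose and 24.4% fell with doxorubicin in IMR-90. Of 14 upstream cytokines and receptors tested, 7 rose and 1 fell with doxorubicin in IMR-90; the interleukin-1 genes were among those that rose, IL1A by 5.04 ± 1.05 (adjusted p = 0.0011) and IL1B by 3.78 ± 1.37 (adjusted p = 0.032). IL1B averaged 23.8 ± 27.4 CPM with siMFN1, 20.3 ± 14.8 with siMFN2, 10.5 ± 10.6 with siMFN1+2 and 51.4 ± 50.7 with siMAVS, against 73.1 ± 22.1 CPM with cNEG (SD, n = 3), and neither IL1A nor IL1B was called with any siRNA. LIF, a cytokine of the same list, was called lower with siMFN1 (-1.57 ± 0.35, adjusted p = 0.042) and with siMFN1+2 (-1.56 ± 0.35, adjusted p = 0.04). Of 20 NF-kB pathway genes, 5 rose and 6 fell with doxorubicin, and 4 fell with siMFN1+2, among them NFKBIZ, a nuclear co-activator of NF-kB (-1.40 ± 0.33, adjusted p = 0.049), and NFKB2. NFKBIZ averaged 46.3 ± 14.2 CPM with siMFN1+2, against 122 ± 51.3 CPM with cNEG. With siMFN1, 2 of the 20 fell, TNIP1 (-1.08) and NFKB2 (-0.91), and with siMFN2 and siMAVS none did. Of 12 C/EBP and AP-1 factors, 6 rose and 2 fell with doxorubicin, led by FOS (3.64) and FOSB (3.30), and CEBPD alone was called lower with siMFN1 (-1.26) and with siMFN1+2 (-1.29). Over all genes tested, 0.991% were called lower with siMFN1, 0.168% with siMFN2, 0.933% with siMFN1+2 and 0.414% with siMAVS. The counts within the lists are small and the same cNEG libraries enter each siRNA comparison.

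ZC3H12A encodes regnase-1, a nuclease that degrades inflammatory mRNAs. It rose with doxorubicin in IMR-90 (3.67 ± 0.55, adjusted p = 7.7e-05) and fell with siMFN1 (-2.20 ± 0.51, adjusted p = 0.046) and with siMFN1+2 (-2.54 ± 0.52, adjusted p = 0.027), so it moved in the same direction as the chemokines. It averaged 17.1 ± 9.74 CPM with siMFN1 and 13.3 ± 6.36 with siMFN1+2, against 78.6 ± 7.05 CPM with cNEG. Of the 9 regulators of chemokine mRNA stability tested, it was the only one that rose with doxorubicin, and 6 fell, among them HNRNPD (-2.15) and ZFP36L2 (-1.93), which encode AU-rich-element binding proteins. Among 8 proteases that cut these chemokines, 6 rose with doxorubicin, with MMP12 (6.68) and MMP3 (3.80) highest, and 1 fell. None was called with siMFN1, siMFN2, siMFN1+2 or siMAVS, where the shares of genes called lower were the small ones given above.

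In SK-MEL-103, IL1B rose with doxorubicin to 95.6 ± 4.35 CPM, against 18.2 ± 3.22 CPM in proliferating cells (SD, n = 3; 2.31 ± 0.16, adjusted p = 1.6e-09), while IL1A averaged 20.9 ± 4.08 CPM against 22.2 ± 8.28 CPM. The interleukin-1 receptor IL1R1, named after its values were seen, averaged 0.102 ± 0.0369 CPM in doxorubicin SK-MEL-103 cells, against 0.0268 ± 0.0335 CPM in proliferating ones, and 30.9 ± 16.7 CPM in doxorubicin IMR-90 cells, against 31.3 ± 8.81 CPM in proliferating ones. The difference of doxorubicin effects, SK-MEL-103 minus IMR-90, was -5.11 for IL1A, -2.46 for NFKBIZ, -3.20 for ZC3H12A and -9.97 for MMP3, all called. Also called lower in the same lists were LIF (-2.40), TNFAIP3 (-2.62) and MMP1 (-5.21), with 9.16% of all genes called lower. Other genes of these lists were called the other way: IL1RAP (0.87), IRAK1 (0.89), MYD88 (0.81), ZFP36L2 (1.39), MAPKAPK2 (1.04), ANPEP (1.44) and MMP14 (1.05). For siMFN1+2 the difference was called for ZC3H12A (2.60, adjusted p = 0.039).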

How the data were processed

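Stranded poly(A) libraries, amplified for 10 cycles per the labels' protocols, were processed with Trim Galore 0.6.7, STAR 2.7.10a and featureCounts against GRCh38, per the submitters' processing notes. The annotation release and the strand setting are not given in the sources used here. The authors deposited raw read counts per Ensembl gene, and 48679 of 48898 identifiers carried a symbol; those without one held 0.122% of counts. GENCODE 29 gave a position for 46876 of them.

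The 6 members and the gene lists were chosen with earlier results of these data known. Each siRNA experiment (18 libraries per line) and the compound experiment (12) was fitted on its own with edgeR 4.0.16 in R 4.3.3: filtering by expression, TMM scaling, the bias-corrected quasi-likelihood fit, and Benjamini-Hochberg adjustment over all genes tested. Differences between lines came from a joint fit of 36 libraries. The procedure was also run on simulated counts with 200 changed genes, and the outcome of that run is not given here. Alternatives were DESeq2 1.42.0, other filters and scalings, a replicate block, and leaving out each library. The legacy quasi-likelihood fit and the omission of number 2 from the compound experiment were chosen after seeing the data. Named from each list were up to 2 called genes with the highest and 2 with the lowest fold change, at a mean log2 CPM of at least 0.

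The labels do not say that replicates were separate cultures, so p-values measure the spread between these libraries, which may be technical. Libraries of 1 group differed by at least 9.45 in chi-square per degree of freedom, so none was a duplicate. Counting error is smallest for number 1 and largest for number 3. Titles number the replicates, except for 1 SK-MEL-103 siMFN2 library, taken as number 1. Deviations from group means were correlated between same-numbered libraries by 0.39 to 0.72 for the 3 mitofusin siRNAs in IMR-90, by 0.14 to 0.44 for the 4 siRNAs in SK-MEL-103 and by 0.65 to 0.88 for MFI8 and BI, so those numbers were taken to pair the samples. They did not pair the doxorubicin comparisons or IMR-90 siMAVS.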

Additional observations from a re-analysis of the deposited data

Results flagged for a closer look

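The effect of doxorubicin differed between SK-MEL-103 and IMR-90 for 4 chemokines by a test of the difference itself (SK-MEL-103 minus IMR-90, edgeR's quasi-likelihood test). The log2 difference was -6.73 for CXCL1, -5.86 for CXCL8, -5.04 for CXCL3 and -4.99 for CXCL2. In each gene doxorubicin libraries were below most proliferating ones in SK-MEL-103 and above all of them in IMR-90. The low levels of the melanoma line limit its side of the difference.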

How the results depend on the processing

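Over 103 member results, 1384 recomputed values kept their side of the threshold, 52 lost a call and 65 gained one. Among the 1384, uncalled values changed sign 44 times. In 1 further value the direction changed with a call: CXCL5 in SK-MEL-103 with doxorubicin, at 8.48 without proliferating replicate 2. It was -2.12 without proliferating replicate 1. None of 192 group levels moved by more than 1 SD.

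In IMR-90, the count of called members for siMFN1 was 2, with 302 of 19077 genes called. It was 0 without a filter on low counts (93 of 44677 genes) and 0 with the legacy fit (206 of 19077). In the libraries of the comparison alone it was 0 (3 of 17858), and 6 there with the replicate block (3202 of 17858). DESeq2 gave 4 (863 of 14975). For siMFN2 the count of members was 0 (53 of 19077 genes). The replicate block over all groups gave 2 (226 of 19077) and a term for library codes gave 2 (222 of 19077). DESeq2 also gave 2 (340 of 16444), and the comparison's own libraries with the block gave 6 (2670 of 18095). For siMFN1+2 the count of members was 3 (300 of 19077 genes). It was 6 with the block over all groups (691 of 19077), with the library codes (686 of 19077) and with DESeq2 (867 of 16074). In the comparison's own libraries it was 6 with the block (3257 of 18113) and 0 without it (2 of 18113). The legacy fit gave 1 (193 of 19077). For siMAVS the count of members was 2 (121 of 19077 genes). It was 1 without a filter (47 of 44677) and 0 with the legacy fit (39 of 19077). In the comparison's own libraries it was 0 with or without the replicate block (0 of 17900 genes in each). The cause of these moves was not tested.

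In SK-MEL-103 the block in the comparison's own libraries called 2 members with doxorubicin (8868 of 16759 genes) in place of 4 (10846 of 17945). It called 1 in place of 0 with siMFN1 (3185 of 16804 genes), siMFN2 (1146 of 16877) and siMFN1+2 (1434 of 16884). The doxorubicin comparison of the compound experiment had 0 members called, with 10652 of 19056 genes called. It had 4 with the block over all groups (13283 of 19056 genes). It had 2 with the block in its own libraries (9738 of 16943) and 3 without number 2 (12543 of 19287). BI had 3 with the block in its own libraries (696 of 18113 genes). The line difference for siMFN1+2 had 0 (30 of 20892 genes), and 2 with the replicate block (144 of 20892). It had 1 without a filter (20 of 47426) and 3 with DESeq2 (106 of 15611). The line difference for siMAVS had 1 with DESeq2 (60 of 16823 genes).

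With each library left out in turn, the called members numbered 5 to 6 for doxorubicin in IMR-90, 0 to 2 for siMFN1, 0 to 0 for siMFN2, 0 to 4 for siMFN1+2 and 0 to 2 for siMAVS, 2 to 5 for doxorubicin in SK-MEL-103, 4 to 5 for its difference between the lines, 0 to 1 for the differences in siMFN1+2 and siMAVS, and 0 elsewhere.

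The precision is set by 3 libraries per group, by the 15206115 counts of the shallowest library and, for CXCL6 in SK-MEL-103, by levels of at most 2 counts. Intervals over replicates do not cover differences between cultures where the libraries are technical.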
